A study of Mus musculus with 16 samples.

Results

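The data compared here are the hippocampal transcriptomes of wild-type (WT) mice after 28 days of central infusion of the stearoyl-CoA desaturase (SCD) inhibitor CAY10566 (WT-S, 4 mice) or of its vehicle (WT-D, 4 mice). These 8 mice were all the WT mice of the inhibitor experiment, chosen by their labels, and made up 8 of its 16 mice. The other 8 were 3xTg mice, a model of Alzheimer's disease in which the neuronal Thy1.2 element drives mutant human APP and tau (APP Swe and tau P301L) in a mouse with the PS1 M146V knock-in, given vehicle (3xTg-D, 4 mice) or CAY10566 (3xTg-S, 4 mice). The WT mice were the strain controls of that line, of a mixed C57BL/6J and 129S1 background, and carried none of its alleles. All mice were female. Pumps were implanted at 9 months of age and hippocampi were taken at 10 months. The pumps delivered 80 µM inhibitor, or vehicle with 0.8% DMSO, in artificial cerebrospinal fluid into the lateral ventricle, so WT-D mice had the surgery and the solvent as well. The titles and treatment labels name the Cayman inhibitor, while a protocol text that all samples share names another SCD inhibitor, ab142089. Each library came from the total RNA of 1 mouse's hippocampus, and no measurement of fatty acids or of inhibitor in the tissue was analysed here.

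SCD enzymes sit in the endoplasmic reticulum and place the first double bond into saturated fatty acyl-CoAs, which turns palmitate and stearate into the monounsaturated palmitoleate and oleate. Their products go into membrane phospholipids, triglycerides and cholesterol esters, and in the brain into myelin. SCD genes are transcribed under control of SREBP and LXR, so that loss of the product can feed back on the transcription of lipid genes in many tissues. The comparison asks what the inhibitor does to gene expression in a brain without the disease alleles, and how small a change the 8 mice could have shown.

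Across 16475 genes tested, no gene passed a Benjamini-Hochberg adjusted p of 0.05 between WT-S and WT-D by edgeR's quasi-likelihood test, and the smallest adjusted p was 1. At the unadjusted p of 0.01 that the study used to call differentially expressed genes (DEGs), 31 genes (0.188% of those tested) differed, 13 higher (0.0789%) and 18 lower (0.109%) in WT-S, and 371 genes (2.25%) had an unadjusted p under 0.05, 0.777% higher and 1.47% lower. A threshold of 0.01 lets through 165 of 16475 genes where no gene differs. The DEGs below are therefore values that passed only an unadjusted threshold. With the mouse number in the labels as a block, 115 genes (0.698%) passed it, 33 higher (0.2%) and 82 lower (0.498%), 757 (4.59%) had an unadjusted p under 0.05, 1.46% higher and 3.13% lower, and again none passed the adjusted threshold (smallest adjusted p 0.561). DESeq2's likelihood ratio test called 43 genes at an unadjusted p of 0.01 and 2 at the adjusted threshold, Cfap54 (adjusted p = 0.000234) and Gm15920 (adjusted p = 0.0308). limma-voom called 30 at the unadjusted and none at the adjusted threshold, with a smallest adjusted p of 0.998.

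The 8 libraries held 18445533 to 23309273 reads on genes. Prox1, a transcription factor of dentate granule cells that marks the hippocampus, was at 108 to 155 CPM, the reads of a gene scaled to a common library size, in every mouse. Some mice stood apart from others of their own group. WT-D1 lay alone on the second principal component, at 43.6 against -14.7 to -0.0131 in the other 7 mice. On the first component WT-S4 (32.3) and WT-D4 (24.0) lay at one end and WT-S2 (-34.7) at the other. The share of reads outside annotated genes was highest in WT-S4 (13.1%) and WT-D4 (12.5%), lowest in WT-S2 (8.55%) and between 9.93% and 11.9% in the other 5. Genes of the choroid plexus, the tissue of the ventricles that makes cerebrospinal fluid, summed to 776.9 CPM in WT-D4 and 315.7 CPM in WT-S1 against 36.2 to 73.0 CPM in the other 6, and Ttr, its main secreted product, was at 638 and 246 CPM against 1.82 to 31.6 CPM. With the share of reads outside genes as a covariate 49 genes had an unadjusted p of 0.01 or less, and with the choroid plexus score as a covariate 22, 21 and 11 of them among the 31 DEGs.

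**Figure D1:**
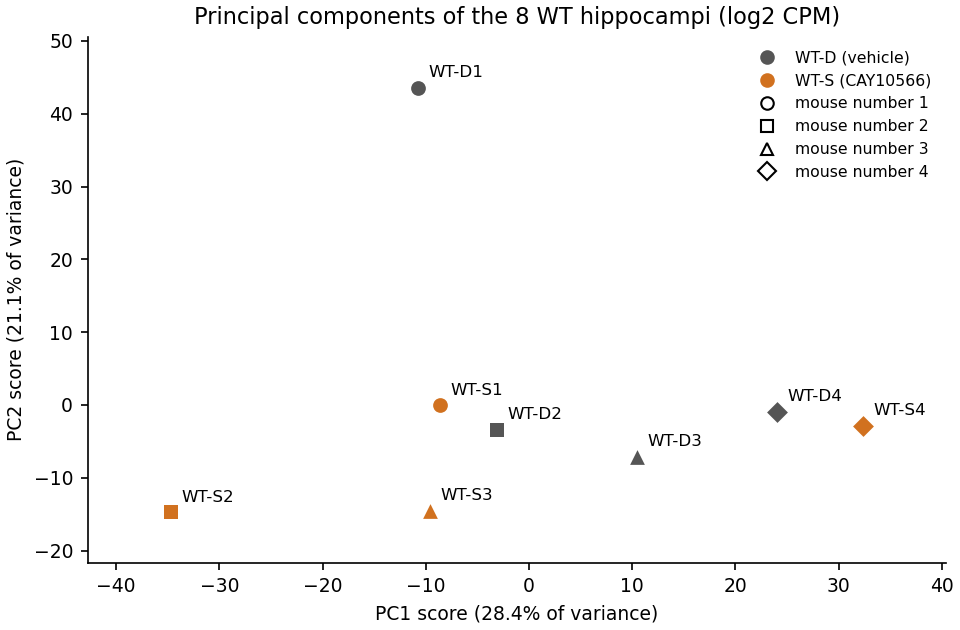
Scores of the 8 WT mice on the first (28.4% of variance) and second (21.1%) principal component of log2 CPM. Grey is vehicle and orange is CAY10566, and the marker shape gives the mouse number. WT-D1 stood alone on the second component and the treatments did not separate on the first.

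How small a change could be excluded depended on the level of the gene. For each gene the 95% confidence interval of the fold change was taken from the quasi-likelihood fit, and a fold was counted as excluded where the whole interval lay inside it in both directions. The median interval reached 0.246 on the log2 scale to either side of the estimate, a factor of 1.19. The median gene excluded a change beyond 1.26-fold, and for 90% of genes the bound was 2.05-fold or less. A 2-fold change was excluded for 14673 genes (89.1%), a 1.5-fold change for 12088 genes (73.4%) and a 1.2-fold change for 6023 genes (36.6%). With the block these shares were 90.6%, 75.6% and 43.2%. Equivalence tests for the same folds, without the block, were also adjusted over all genes and judged at an adjusted p of 0.05. They passed for 92.1%, 76.1% and 29.5% of genes. For the 2-fold and 1.5-fold change that level is looser than the one a 95% interval sets, and for the 1.2-fold change it is stricter. These shares therefore cannot be compared directly with those from the intervals. The higher values for the 2-fold and 1.5-fold change are no gain from the adjustment.

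The shares differed with the level of the gene. Of 2254 genes over 100 CPM, 98.1% excluded a 1.5-fold change and 75.9% a 1.2-fold change. Between 10 and 100 CPM, 96.6% of 7582 genes excluded a 1.5-fold change and 55.9% a 1.2-fold change. Between 1 and 10 CPM the 1.5-fold share was 54.3% of 4654 genes, and under 1 CPM it was 1.16% of 1985 genes. For a gene under 1 CPM even a 2-fold change was mostly within the interval, and 40.0% of such genes excluded it. The estimates were small, with a median size of 0.0751 on the log2 scale. 508 genes had an estimate beyond 1.5-fold and 145 beyond 2-fold, but the interval lay wholly beyond 1.5-fold for 7 genes.

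**Figure D2:**
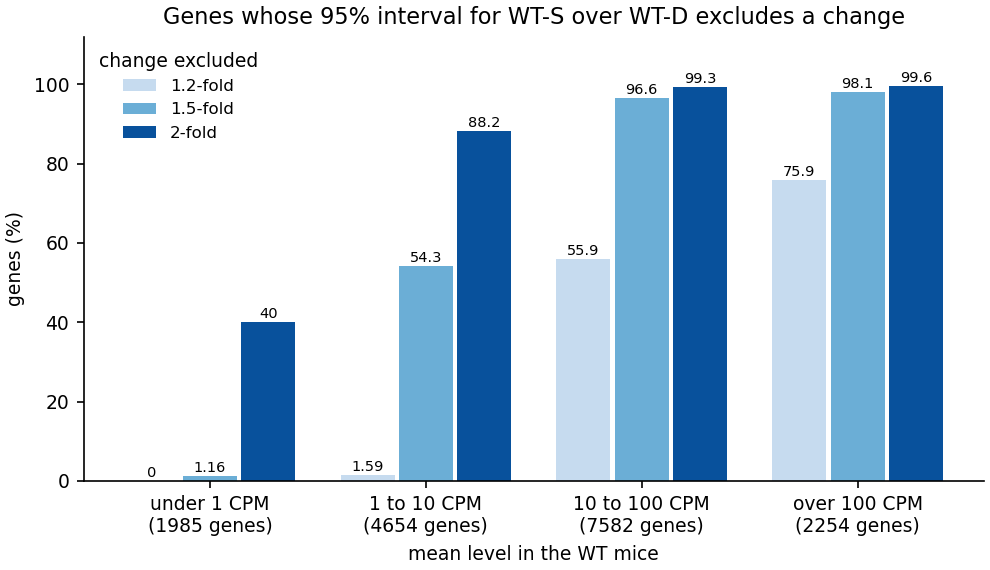
Share of genes (percent, vertical axis) whose 95% interval for WT-S over WT-D excludes a change of 1.2-fold, 1.5-fold or 2-fold, by mean CPM in the WT mice, in the fit without the block. Over 100 CPM 98.1% of genes excluded a 1.5-fold change, and under 1 CPM 1.16% did.

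The genes that encode the targets of the inhibitor had close values in both groups. Scd1 (GRCm38 chr19:44394455-44407879) was at 196, 191, 171 and 162 CPM in WT-D1 to WT-D4 and at 180, 216, 185 and 155 CPM in WT-S1 to WT-S4. The groups overlapped, and the log2 fold change of 0.04 had a 95% interval from -0.19 to 0.26, which excluded a 1.5-fold change in either direction. Scd2 (chr19:44293674-44306864), the main SCD gene of the brain, was at 1449, 1452, 1354 and 1369 CPM in WT-D and 1402, 1563, 1400 and 1319 CPM in WT-S. Its interval was narrower, from -0.12 to 0.15 around a log2 fold change of 0.02. Scd3 was at 4.09 ± 0.610 CPM in WT-D and 4.33 ± 0.853 CPM in WT-S (SD, n = 4 each), with a log2 interval from -0.30 to 0.48. Scd4, with 4 to 13 reads in any WT mouse, was too low to be tested. The transcripts of the 3 measured desaturases were thus bounded within a 1.5-fold change in either direction, while none of these values says how active the enzymes were.

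The other genes of lipid metabolism had values close to equal in the 2 groups. In 9 lists that cover desaturation, elongation, lipogenesis, cholesterol synthesis, acyl-CoA activation, lipid droplets, β-oxidation, sphingolipids and lipoproteins, 165 of 172 genes were tested and the median log2 fold change was 0.01, beside -7.79e-05 over all genes. No listed gene was higher and 1 was lower at an unadjusted p of 0.01, and 1 was higher and 3 were lower under 0.05 (all genes 0.777% higher and 1.47% lower). Without WT-S4, 13 were higher and 8 lower under 0.05 (all genes 4.78% and 7.67%). A 1.5-fold change was excluded for 144 of the 165 (87.3%, against 73.4% of all genes) and a 2-fold change for 160. The 5 that did not exclude a 2-fold change were Plin5, Pnpla3, Sphk1, Apod and Cd36.

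Among the lipid genes 1 was a DEG. Elovl1 (chr4:118428093-118432953), an elongase that makes saturated and monounsaturated very long chain acyl-CoAs for sphingolipids, was at 8.87, 8.55, 8.96 and 10.4 CPM in WT-D and 7.51, 6.43, 7.34 and 6.95 CPM in WT-S. The groups were fully separate, with WT-S lower, at a log2 fold change of -0.38 ± 0.11 (SE; unadjusted p = 0.00495, adjusted p = 1). In 3xTg mice the log2 fold change of Elovl1 was -0.09 (unadjusted p = 0.392).

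The genes that would carry a sterol or fatty acid feedback stayed within narrow bounds. Srebf1, which encodes the SREBP of fatty acid synthesis, had a log2 fold change of -0.10 (95% interval -0.30 to 0.11), and Srebf2, that of sterol synthesis, 0.00 (-0.15 to 0.15). Fasn, the fatty acid synthase, was at 199 ± 14.1 CPM in WT-D and 186 ± 29.3 CPM in WT-S (SD, n = 4 each), with an interval from -0.32 to 0.13. Hmgcs1 of cholesterol synthesis had a log2 fold change of 0.01 (-0.14 to 0.17) and Acat2, which makes acetoacetyl-CoA for the same pathway, 0.15 (-0.04 to 0.33). The delta-5 desaturase Fads1 was at 0.13 (-0.05 to 0.31), and Cpt1a, the entry step of mitochondrial β-oxidation, at 0.12 (-0.04 to 0.28). For Insig2, Cers1, Ugcg, Hadha, Agpat3 and Acsl3 the estimates lay between -0.01 and 0.13.

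3 further lipid genes had an unadjusted p near or under 0.05. Acss1, the mitochondrial acetyl-CoA synthetase, was at 27.6 to 29.8 CPM in WT-D and 30.7 to 34.9 CPM in WT-S, without overlap, and its log2 fold change was 0.17 (unadjusted p = 0.0266). Lipe, the hormone-sensitive lipase, was at 5.30 to 6.24 CPM in WT-D and 4.55 to 5.03 CPM in WT-S, also without overlap, at a log2 fold change of -0.25 (unadjusted p = 0.0490). Apod, a lipocalin of glia and of vessel-associated cells, was at 206, 114, 156 and 101 CPM in WT-D and 119, 79.1, 81.9 and 86.6 CPM in WT-S. WT-S1 lay inside the range of WT-D, but each WT-S mouse was below the WT-D mouse of the same number, and the log2 fold change was -0.66 (unadjusted p = 0.0113) without the block and -0.62 (unadjusted p = 0.00022, adjusted p = 0.681) with it. Apoe, the most abundant gene of the lipoprotein list, was at 1107 CPM in WT-D and 1140 CPM in WT-S.

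The 31 DEGs were a mixed set. 23 were protein-coding, 8 had a mean under 1 CPM and 18 differed by more than 1.5-fold. In 26 of the 31 the 2 groups did not overlap (1.48% of all genes tested, 0.765% with WT-S higher and 0.716% with WT-S lower), and all 31 kept 1 direction in the 4 same-numbered pairs, both of which the choice by p favours. 24 of the 31 also passed with the block. Values for the 8 with the smallest p in each direction follow.

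Cfap54 (chr10:92775619-93081618), a protein of the central apparatus of motile cilia, was at 19.7, 24.7, 11.3 and 18.1 CPM in WT-D and 8.78, 5.29, 6.74 and 8.68 CPM in WT-S. No mouse overlapped, and the log2 fold change was -1.32 ± 0.23 (unadjusted p = 0.000158, adjusted p = 1). The mean of Cfap54 was 18.4 CPM in WT-D, against 7.37 in WT-S, 6.89 in 3xTg-D and 6.54 in 3xTg-S. WT-D thus stood apart from the other groups. In 3xTg mice its log2 fold change was -0.07 (unadjusted p = 0.842), and the unadjusted interaction p was 0.0172. Gm15920 (chr5:130188395-130188796), a processed pseudogene, was at 8.15, 13.8, 0.801 and 6.74 CPM in WT-D and 0.423, 0.518, 0.642 and 0.380 CPM in WT-S. WT-D3 was close to the WT-S mice and the other 3 WT-D mice were over 6 CPM, which gave a log2 fold change of -3.89 ± 0.73 (unadjusted p = 0.000185). Reads of a processed pseudogene can be shared with its parent gene, so this value is uncertain. Without WT-D3 its adjusted p was 0.00141, the only call at the adjusted threshold when 1 mouse was left out. The adjusted p of Cfap54 was not below the threshold in any of these fits.

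Ripk3, the kinase of necroptosis, was at 0.465, 0.817, 0.651 and 0.511 CPM in WT-D and 0.235, 0.155, 0.138 and 0.108 CPM in WT-S, so it was near the detection limit in each mouse. All WT-S values were lower, with a log2 fold change of -1.88 ± 0.40 (unadjusted p = 0.000403). Ect2, an exchange factor of cytokinesis, was at 0.901 to 1.11 CPM in WT-D and 0.363 to 0.760 CPM in WT-S (log2 fold change -1.01 ± 0.28). Nlrp6, an inflammasome sensor, was at 0.845 to 1.07 CPM against 0.458 to 0.597 CPM (-0.85 ± 0.24). Spn, the leukocyte sialoglycoprotein CD43, was at 0.601 to 1.23 CPM against 0.367 to 0.470 CPM (-1.06 ± 0.30). Gm44053, a long non-coding RNA, was at 1.53 to 1.92 CPM against 0.825 to 1.30 CPM (-0.80 ± 0.21). None of these 4 overlapped between the groups, and all were under 2 CPM in each mouse.

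Of the other lower DEGs, Itgb4, a laminin-binding integrin subunit, was at 7.44 to 11.2 CPM in WT-D and 5.09 to 7.18 CPM in WT-S, at a log2 fold change of -0.60. A2m, the protease inhibitor α2-macroglobulin, was at 7.35, 3.84, 4.70 and 8.63 CPM in WT-D and 4.27, 1.09, 1.47 and 3.09 CPM in WT-S. Its groups overlapped but mice of the same number differed alike, and the log2 fold change was -1.30 (unadjusted p = 0.00811) without the block and -1.38 (unadjusted p = 5.1e-05, adjusted p = 0.561) with it. Dnah10, an axonemal dynein, had a log2 fold change of -0.65, Dennd1c, a Rab exchange factor, -1.08, Polr3e, a subunit of RNA polymerase III, -0.23, and Ankub1 -0.47. The non-coding RNAs Gm19500 and 1700112D23Rik were at -0.53 and -1.19. The last of the 18 were H2-Aa and H2-Ab1, which are described with the immune genes.

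The 13 higher DEGs had a median level of 14.9 CPM and the 18 lower ones of 3.64 CPM. Igfbp4, which binds insulin-like growth factors, was at 52.8, 63.6, 62.7 and 55.3 CPM in WT-D and 75.6, 79.7, 69.7 and 67.5 CPM in WT-S. The groups did not overlap and the log2 fold change was 0.32 ± 0.08 (unadjusted p = 0.00243, adjusted p = 1). Lhx6, the homeobox factor of interneurons from the medial ganglionic eminence, was at 13.5, 13.3, 14.7 and 13.1 CPM in WT-D and 15.3, 16.8, 17.6 and 16.1 CPM in WT-S, again without overlap (0.27 ± 0.08, unadjusted p = 0.00613). Nr2e1, the nuclear receptor Tlx of neural stem cells and astrocytes, was at 12.2 to 14.5 CPM against 15.4 to 16.7 CPM (0.28 ± 0.08). Fbxo22, a substrate adaptor of a ubiquitin ligase, was at 28.2 to 29.9 CPM against 32.0 to 36.0 CPM (0.22 ± 0.06).

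D430019H16Rik was at 161 to 182 CPM in WT-D and 193 to 211 CPM in WT-S (0.21 ± 0.06). Rny1, a Y RNA, Gm50251, a long non-coding RNA, and Gm4929, a processed pseudogene, were under 3 CPM in every WT mouse and had log2 fold changes of 0.90, 0.92 and 1.10. The last 5 were Map3k20, a kinase of the ribotoxic stress response (0.27), Btbd6, a cullin-3 adaptor (0.22), Grk5, a kinase of G protein-coupled receptors (0.22), Prkg2, a cGMP-dependent kinase (0.42), and the non-coding 1110015O18Rik (1.39). The groups did not overlap in 12 of the 13 higher DEGs, and WT-S4 lay inside the WT-D range for 1110015O18Rik.

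**Figure D3:**
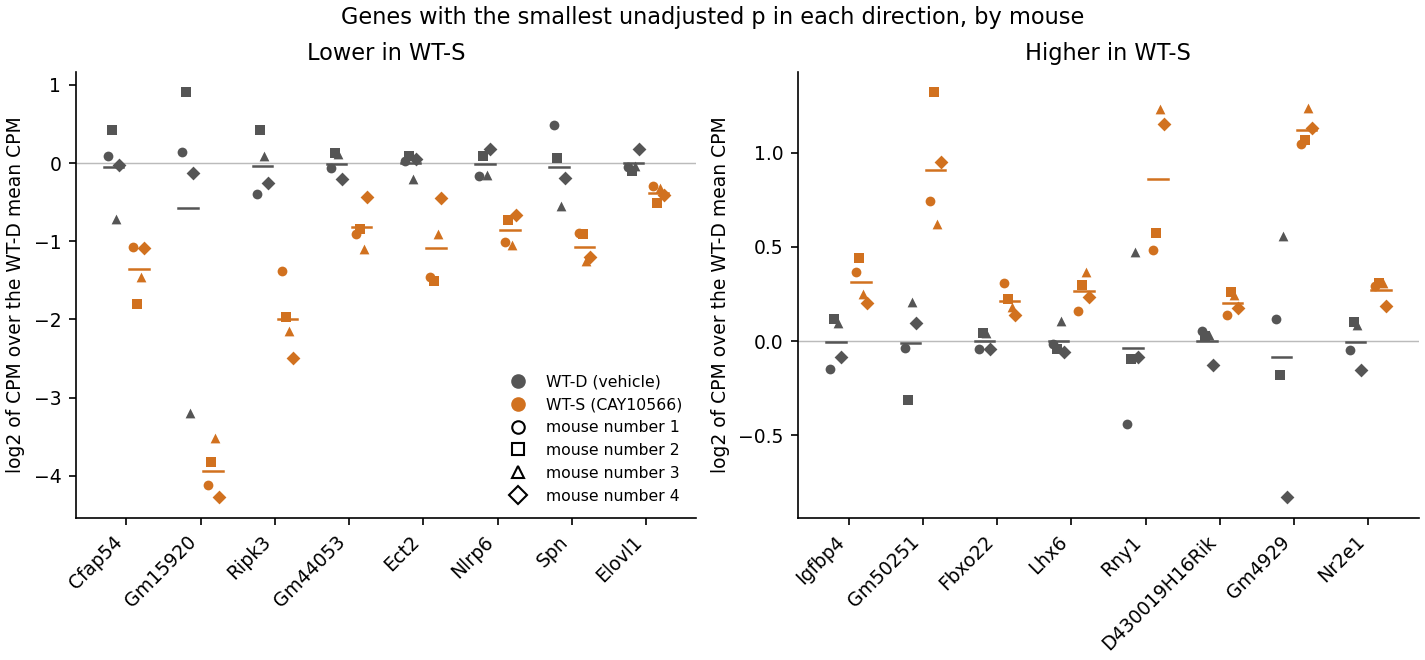
Log2 of each mouse's CPM over the mean CPM of WT-D (vertical axis) for the 8 DEGs with the smallest unadjusted p in each direction, which are shown because of those p. Points are mice, shapes are mouse numbers and bars are group means of the log2 values. The higher genes shown from Igfbp4 to Nr2e1 had log2 fold changes of 0.21 to 1.10, and Gm15920 in WT-D3 lay near the WT-S mice.

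The block brought in genes in which mice of the same number had like levels. Of those that passed only with it, the one with the smallest p was Gm42418, a transcript that overlaps the ribosomal RNA repeat, at 2356, 1750, 1765 and 1679 CPM in WT-D and 3321, 2389, 2446 and 1905 CPM in WT-S. It was higher in WT-S in all 4 pairs, at a log2 fold change of 0.40 (unadjusted p = 8.48e-05, adjusted p = 0.561). Rtp1, a chaperone of olfactory and taste receptors (0.88), Fam45a (0.23), Fgd6, a Cdc42 exchange factor (0.30), Kcnj16, a potassium channel of astrocytes (0.23), Gng4, a G protein γ subunit (0.25), and Nrsn1, a neuronal vesicle protein (0.23), were also higher in each pair. Trim12a was at 1.63 CPM in WT-S4 and at 0 in the other 7 mice, so its call came from 1 mouse.

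The lower genes added by the block were led by Apod. Neat1, the RNA of nuclear paraspeckles, was at 95.3, 71.3, 58.9 and 111.5 CPM in WT-D and 63.7, 51.8, 51.1 and 89.3 CPM in WT-S, a log2 fold change of -0.39 with the block (unadjusted p = 0.00038). The mice numbered 4 were the highest of each group and those numbered 3 the lowest. Emx2os, antisense to Emx2 (-0.65), Col16a1, a fibril-associated collagen (-0.61), Cxcl13, a B cell chemokine (-2.72), Lyz2, lysozyme of myeloid cells (-1.09), H2-Eb1 (-2.90) and Pirb, an inhibitory receptor for MHC class I (-2.05), followed. Col16a1, Cxcl13, Lyz2, H2-Eb1 and Pirb were highest in WT-D1 of all 8 mice. With both mice numbered 1 left out, 107 genes passed with the block. Without both mice numbered 4 there were 385.

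Immune genes were lower in WT-S in the group means, and WT-D1 was far above the other 7 mice in many of them. The list of MHC class II genes was added after the values were seen. Its 7 tested genes summed to 262 CPM in WT-D1, to 13.6, 17.4 and 15.3 CPM in WT-D2 to WT-D4 and to 16.01, 11.3, 12.3 and 13.8 CPM in WT-S1 to WT-S4. Among the 7 mice other than WT-D1 the groups overlapped. H2-Aa (chr17:34282744-34287823), the class II α chain that presents peptides to CD4 T cells, was at 54.5 CPM in WT-D1, 1.15, 2.25 and 1.33 CPM in the other WT-D mice and 1.74, 0.156, 0.642 and 0.597 CPM in WT-S. H2-Ab1, its β chain partner, was at 39.2 CPM in WT-D1 and 0.207 to 1.05 CPM in the other 7. Cd74, the invariant chain that escorts both, was at 106 CPM in WT-D1 and 0.518 to 3.25 CPM in the others. Ciita, the master regulator of class II transcription, had 118 reads in WT-D1 and 0 to 4 in each other WT mouse.

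The promoters of H2-Aa and H2-Eb1 are shown because class II genes were high together in WT-D1 and these share a Y box, the inverted CCAAT element bound by NF-Y. Each is the 250 bases before the start of the gene from RefSeq (GRCm38.p6), 5′ to 3′ on the gene's strand, at chr17:34287824-34288073 (minus strand) for H2-Aa and chr17:34305617-34305866 (plus strand) for H2-Eb1. Capitals mark the letters CTGATTGG. They begin 51 and 62 bases before the start, and 3.83% of 32851 RefSeq promoters of this length hold them on either strand. The shorter core ATTGG, which they include, is in 33.8%.
H2-Aa: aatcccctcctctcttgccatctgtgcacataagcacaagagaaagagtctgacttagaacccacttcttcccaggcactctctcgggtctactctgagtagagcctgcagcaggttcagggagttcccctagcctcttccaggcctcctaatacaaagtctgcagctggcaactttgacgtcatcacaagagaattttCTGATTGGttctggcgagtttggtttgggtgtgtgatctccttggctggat
H2-Eb1: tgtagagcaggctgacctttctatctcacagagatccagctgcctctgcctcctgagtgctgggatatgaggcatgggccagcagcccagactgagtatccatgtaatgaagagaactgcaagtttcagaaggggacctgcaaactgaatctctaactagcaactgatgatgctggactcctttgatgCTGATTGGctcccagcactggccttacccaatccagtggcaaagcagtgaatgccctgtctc

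With all 8 mice, the log2 fold changes were -4.23 for H2-Aa (unadjusted p = 0.00982), -4.56 for H2-Ab1 (0.00925) and -4.06 for Cd74 (0.0118). DESeq2 gave no p for these genes. Without WT-D1 the log2 fold changes were -0.98 for H2-Aa (unadjusted p = 0.0999) and -0.91 for H2-Ab1 (unadjusted p = 0.0525). The median over the 7 class II genes went from -3.80 with 5 genes lower below 0.05 (1.47% of all genes) to -0.60 with none (0.953% of all genes). The block gave another count, since without both mice numbered 1 the median was -0.92, 4 of the 7 were lower below 0.05 (2.76% of all genes) and 3 below 0.01 (0.649% of all genes in either direction). In that fit the log2 fold changes were -1.78 for H2-Aa (unadjusted p = 0.000711, adjusted p = 0.837), -1.32 for H2-Ab1 (unadjusted p = 0.0134), -1.19 for H2-Eb1 (unadjusted p = 0.00812) and -0.92 for Cd74 (unadjusted p = 0.00555).

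WT-D1 was also the highest mouse in the other immune lists, except that disease-associated microglia genes summed to 4526 CPM in it and 4918 CPM in WT-S2. The 15 MHC class I genes summed to 829 CPM in WT-D1 against 160 to 207 CPM in the other 7 mice. H2-K1, a classical class I heavy chain, was at 137 CPM in WT-D1 and 18.9 to 24.1 CPM in the others, and B2m, the light chain, was at 298 CPM against 71.8 to 99.2 CPM. The interferon response list summed to 402 CPM against 106 to 140 CPM, and the interferon-inducible GTPase Gbp2 was at 49.5 CPM against 2.28 to 4.60 CPM. Cxcl10, a chemokine that attracts T cells, was at 13.6 CPM against 0.108 to 0.704 CPM, and Lcn2, a lipocalin of reactive astrocytes, at 14.2 CPM against 0 to 1.14 CPM. C4b, a complement component, was at 158 CPM against 22.8 to 49.9 CPM, and the reactive astrocyte list summed to 1384 CPM against 758 to 820 CPM. Homeostatic microglia genes summed to 929 CPM against 511 to 675 CPM. In whole tissue, more cells of a type and more RNA per cell cannot be told apart.

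Over 7 immune and glial lists, 106 of 121 genes were tested. With all 8 mice, 91 of the 106 had a negative log2 fold change, the median was -0.39 and 20 were lower below 0.05 (1.47% of all genes). Without WT-D1, 52 were negative and 54 positive, the median was 0.0029, and none had a p under 0.05 in either direction (all genes then 0.619% higher and 0.953% lower). The medians without WT-D1 were -0.04 for MHC class I (from -1.66), -0.01 for interferon response (from -1.03), 0.03 for inflammatory cytokines and chemokines (from -0.39), -0.07 for reactive astrocytes (from -0.27), 0.08 for homeostatic microglia (from -0.13) and 0.02 for disease-associated microglia (from -0.18). The 3 WT-D mice that remained and the 4 WT-S mice excluded a 1.5-fold change in 62 of the 106 genes and a 2-fold change in 86.

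**Figure D4:**
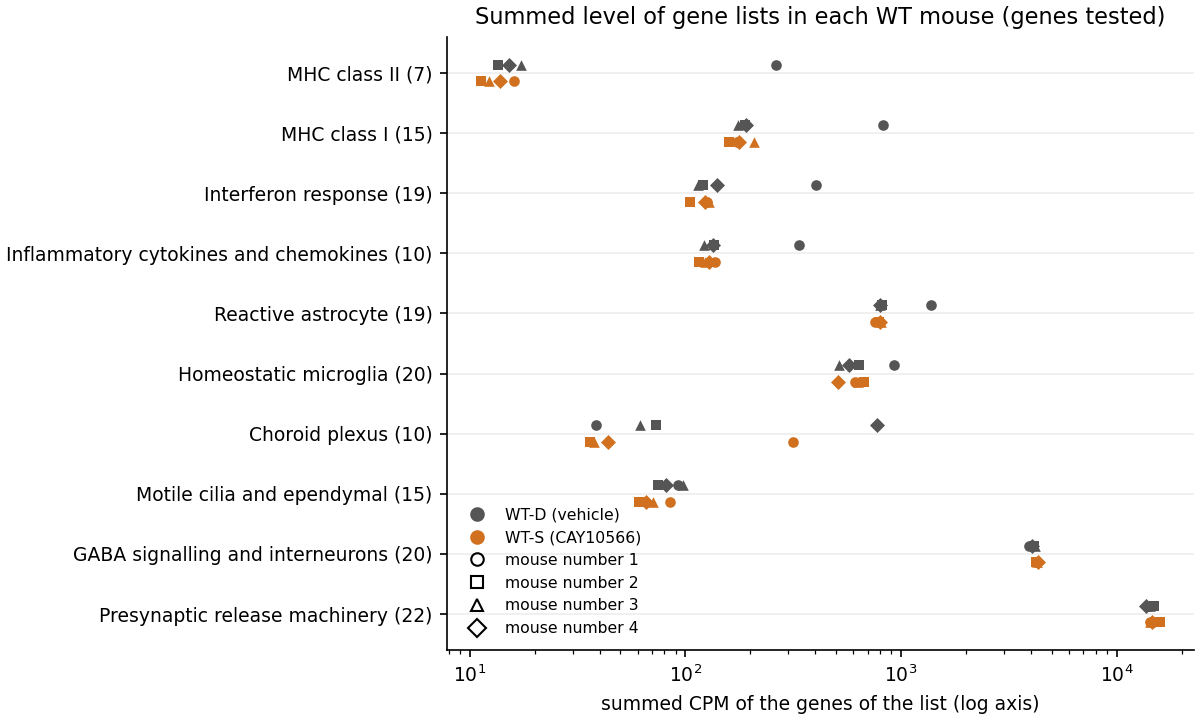
Summed CPM (log axis) of the tested genes of 10 lists in each WT mouse, with the number of genes in brackets. Grey is vehicle, orange is CAY10566 and shapes are mouse numbers. WT-D1 was the highest mouse in the immune lists shown, at 262 CPM for MHC class II, and WT-D4 and WT-S1 were the highest for the choroid plexus.

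**Figure D5:**
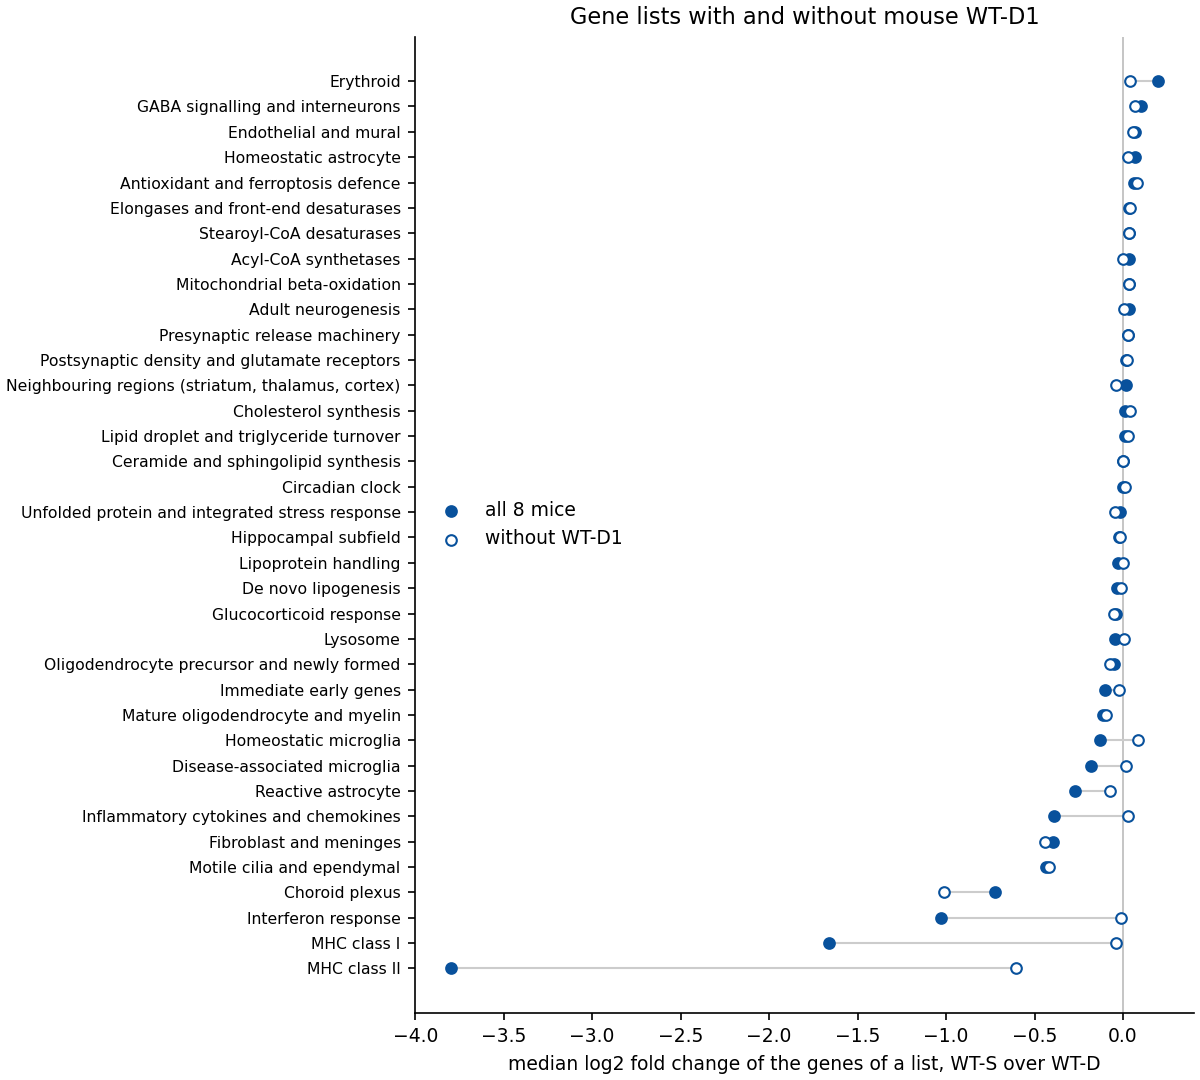
Median log2 fold change of WT-S over WT-D (horizontal axis) of each gene list, with all 8 mice (filled) and without WT-D1 (open). MHC class I went from -1.66 to -0.04 and the motile cilia list from -0.43 to -0.42.

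Genes of motile cilia, the beating cilia of the ependymal cells that line the ventricles, were mostly lower in WT-S in the group means. This did not rest on WT-D1. The list summed to 92.05, 74.64, 97.74 and 80.89 CPM in WT-D1 to WT-D4. In WT-S1 to WT-S4 it summed to 84.89, 61.05, 70.69 and 65.77 CPM. The groups overlapped, with WT-S1 above WT-D2 and WT-D4. Of 15 tested genes, 13 had a negative log2 fold change, the median was -0.43 and 5 were lower below 0.05 (none under 0.01, all genes 1.47% lower under 0.05). With the block 8 were lower below 0.05 (3.13% of all genes), and 3 of these were below 0.01 (0.498%). Foxj1, the transcription factor that drives motile ciliogenesis, was at 9.59, 6.29, 9.56 and 7.81 CPM in WT-D and 6.71, 5.39, 6.19 and 5.26 CPM in WT-S. WT-D2 lay inside the range of WT-S and each pair went the same way, with a log2 fold change of -0.50 (unadjusted p = 0.01001) without the block and -0.49 (0.00255) with it.

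The axonemal genes of the list had like values. Hydin, of the central pair, was at 2.96 to 5.91 CPM in WT-D and 1.93 to 3.20 CPM in WT-S, at a log2 fold change of -0.63 (unadjusted p = 0.0233). Dnah11, a dynein heavy chain, was at 2.69 to 3.32 CPM against 1.55 to 3.05 CPM (-0.59, unadjusted p = 0.0240). Cfap43 (-0.63) and Cfap126 (-0.47) were the other 2 below 0.05. Tppp3, the most abundant gene of the list, was at 23.3 CPM in WT-D and 21.4 CPM in WT-S, and Ccdc153 and Pifo had positive values. Without WT-D1 the median was -0.42 and without WT-S4 -0.41, with 4 and 5 genes lower below 0.05 (0.953% and 7.67% of all genes). In the 3xTg mice, which shared no animal with this comparison, the median of the same 15 genes was -0.67, and Foxj1 had a log2 fold change of -0.66 (unadjusted p = 0.00291, adjusted p = 0.722). A negative median in 3xTg was not particular to the cilia list. Each of the 7 immune and glial lists had one as well, from -1.09 (MHC class II) to -0.28 (interferon response). Vehicle mouse 3xTg-D2 was high in several of them. MHC class I summed to 490.5 CPM in it and 157 to 185 CPM in the other 3xTg-D mice, and class II to 52.48 against 11.17 to 12.58 CPM. Interferon response was at 371 CPM in it, but also at 364.1 CPM in 3xTg-S1. The part of single mice in these 3xTg medians was not tested. Mature oligodendrocyte genes were at -0.34. The median over all genes there was 0.007. Cfap54, outside the list, was at -0.07 in 3xTg. Ependyma, choroid plexus and meninges adjoin the hippocampus. All 10 choroid plexus genes tested (median -0.73) and all 12 fibroblast and meningeal genes (median -0.40) had negative log2 fold changes as well, none with a p under 0.05. The choroid plexus values turned on single mice. With the block and without both mice numbered 4 the median was 0.14 with 9 of 10 positive. With the block and without both mice numbered 1 it was -2.10 with all 10 lower below 0.05 (2.76% of all genes). Ttr went from a log2 fold change of -1.42 to 1.80 without WT-D4. Without WT-S4, 6 of the 12 fibroblast and meningeal genes were lower below 0.05 (7.67% of all genes). With the choroid plexus score as a covariate, the median of the cilia list was -0.43 with 12 of 15 negative and 3 lower below 0.05 (1.49% of all genes). The choroid plexus median was then -0.07, but the score is the mean of those same genes, so a small value was built in. The score was highest in WT-D4 and WT-S1, a mouse of each group. The part of the meningeal genes in the values of the cilia genes was not tested.

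Neuronal genes of release and reception had values near 0. All 22 presynaptic and all 26 postsynaptic genes tested excluded a 1.5-fold change (73.4% of all genes and 98.1% of those over 100 CPM), none had an unadjusted p under 0.05, and the median log2 fold changes were 0.03 and 0.02. Camk2a, the calcium-dependent kinase of the postsynaptic density, was at 3422 CPM in WT-D and 3676 CPM in WT-S (interval -0.06 to 0.27), and Snap25, of the vesicle fusion complex, at 2395 and 2515 CPM (-0.07 to 0.22). Cplx2 (0.13) and Homer3 (0.15) had the smallest p of their lists. Without WT-S4, 3 postsynaptic genes were lower below 0.05 (7.67% of all genes). The 17 circadian clock genes also excluded a 1.5-fold change, and Tef, the most abundant of them, was at 328 and 332 CPM.

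Genes of GABA signalling and interneurons leaned higher in WT-S. 18 of 20 had a positive log2 fold change, with a median of 0.10, and 3 had a p under 0.05 (all genes 0.777% higher): Lhx6, Gad2 and Cnr1. Gad2, which makes GABA at terminals, was at 208, 232, 231 and 199 CPM in WT-D and 268, 254, 244 and 221 CPM in WT-S, and WT-S4 lay within the WT-D range. Cnr1, the cannabinoid receptor of CCK interneurons and other neurons, was at 281 to 311 CPM against 313 to 356 CPM, without overlap (0.15, unadjusted p = 0.0309). With the block, Sst (0.27, unadjusted p = 0.004) and Npy (0.41, 0.00891), neuropeptides of interneurons, joined them. WT-S4 was below 3 of the 4 WT-D mice in Sst (98.5 CPM) and below all 4 in Npy (32.8 CPM). Without WT-D1 the median was 0.07 and 1 gene was higher below 0.05 (0.619% of all genes), and without WT-S4 it was 0.14 with 8 of 20 higher below 0.05 (4.78% of all genes).

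Other lists gave few values apart from 0. In the stress response list 3 of 26 genes were lower below 0.05 (1.47% of all genes): Pdia4 (-0.17) and Creld2 (-0.28), which fold proteins in the endoplasmic reticulum, and Atf3 (-0.70), a stress transcription factor. 25 of the 26 excluded a 1.5-fold change, and Hsp90b1, the most abundant, was at 452 and 451 CPM. In the antioxidant list Srxn1, which repairs peroxiredoxins, was higher (0.17, unadjusted p = 0.0260), and all 23 genes excluded a 1.5-fold change. Myelin genes had negative values in 19 of 20, with a median of -0.11. The list summed to 4231 CPM in WT-S4 and 5384 to 6371 CPM in the other 7 mice, and without WT-S4 the median was -0.03 with 13 of 20 negative. Mag, a myelin adhesion protein, had a log2 fold change of -0.29 (unadjusted p = 0.0480), and Myrf, the factor that drives myelin genes, was at 40.1 to 50.9 CPM in WT-D and 31.9 to 41.9 CPM in WT-S (-0.31, unadjusted p = 0.0119).

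In the vessel list Rgs5 of pericytes was higher (0.32) and Vwf of endothelium lower (-0.69) at unadjusted p of 0.0411 and 0.0447. Mki67, a proliferation marker of the neurogenesis list, was lower (-1.54, unadjusted p = 0.0398), and it was at 7.82 CPM in WT-D1 against 0.798 to 2.35 CPM in the other 7. Immediate early genes had no p under 0.05 without the block and 3 of 23 lower under 0.01 with it (0.498% of all genes), namely Nr4a1, Fos and Arc. Fos was at 13.2, 5.62, 4.85 and 7.40 CPM in WT-D and 7.79, 5.08, 3.71 and 4.07 CPM in WT-S, with both mice numbered 1 the highest of their groups. Tac1 was at 6.49 to 10.8 CPM in WT-D and 7.49 to 15.7 CPM in WT-S (0.53, unadjusted p = 0.0384).

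For the lysosome, glucocorticoid response and hippocampal subfield lists the medians were -0.05, -0.04 and -0.03, and for homeostatic astrocytes and oligodendrocyte precursors 0.07 and -0.05. Erythroid genes had a median of 0.20 and markers of neighbouring regions 0.02. Over the 35 lists other than MHC class II, 605 of 634 genes were tested, 1 was higher and 1 lower at an unadjusted p of 0.01, 7 were higher and 30 lower under 0.05 (0.777% and 1.47% of all genes), and 439 (72.6%) excluded a 1.5-fold change, close to the 73.4% of all genes.

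The difference between the 2 genotypes in the response to the inhibitor was tested by the interaction in all 16 mice. At an unadjusted p of 0.01, 98 genes passed (0.595%), 50 with a more positive log2 fold change in 3xTg (0.303%) and 48 with a more negative one (0.291%), and none passed the adjusted threshold (smallest adjusted p 0.788, 821 genes or 4.98% under an unadjusted 0.05). DESeq2 called 114 and limma-voom 104 at the unadjusted threshold. With the block 624 genes passed it and none passed the adjusted one (smallest adjusted p 0.206). Of the 31 WT DEGs, 19 had the same direction in 3xTg-S vs 3xTg-D. 2 of them, Itgb4 (-0.52) and A2m (-0.69), had an unadjusted p under 0.05 there (6.33% of all genes). 6 of the 31 had an unadjusted interaction p of 0.01 or less (0.595% of all genes). The interaction uses the same WT values by which the 31 were chosen, which favours a small interaction p, so this count says nothing on a difference between the genotypes. Over all 16475 genes, which are not independent replicates, the log2 fold changes of the 2 genotypes had a Pearson correlation of 0.0637.

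The gene with the smallest interaction p was Gm15920, at means of 7.37 and 0.491 CPM in WT-D and WT-S and of 0.380 and 0.597 CPM in 3xTg-D and 3xTg-S (unadjusted p = 0.000149, adjusted p = 0.788). It was thus 3 of the 4 WT-D mice that stood apart from the other 3 groups. Glo1, the glyoxalase that clears methylglyoxal, had a log2 fold change of 0.20 in WT and -0.42 in 3xTg. Plpp3, a lipid phosphate phosphatase of astrocytes, was at 0.13 and -0.32, Slc38a3, a glutamine transporter, at 0.01 and -0.33, Prrg4 at 0.23 and -0.99, and Grwd1, a ribosome assembly factor, at 0.23 and -0.32. In the other direction Lrrc8c, a subunit of a volume-regulated anion channel, was at -0.09 and 0.30, Lipm, a lipase, at -0.91 and 0.78, and Tshz3, a transcription factor, at -0.25 and 0.41. Atp6v0c, a subunit of the vacuolar proton pump, was at -0.64 and 1.52, but in WT its value came from WT-D3, at 51.8 CPM against 13.7 to 16.8 CPM in the other 7, and in 3xTg-S 3 mice were at 42.6 to 61.6 CPM and 1 at 14.9 CPM.

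The number of genes called depended on WT-S4. Without it, 516 genes had an unadjusted p of 0.01 or less (128 higher and 388 lower), 2052 were under 0.05 and the smallest adjusted p was 0.0907. Without any other WT mouse the count was between 22 and 45, and without WT-D1 it was 29. The 388 lower genes had a median exonic length of 9178 bases against 4192 bases over all genes tested, and the 128 higher genes 3260 bases. Genes longer than 10000 bases took 18.8, 18.3, 18.9 and 19.1% of the CPM of protein-coding genes in WT-D1 to WT-D4, 17.9, 16.9 and 17.7% in WT-S1 to WT-S3 and 19.9% in WT-S4. The share of reads from long genes was therefore lower in 3 WT-S mice than in each WT-D mouse and highest in WT-S4. Its part in these counts was not tested.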

How the data were processed

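The authors deposited raw read counts per gene, 1 column for each mouse. The counts were made from single-end reads trimmed with Trimmomatic 0.35 and aligned to GRCm38 with STAR 2.5.1b, per the submitters' processing notes. The study describes total RNA as the input to an mRNA sequencing library kit. How molecular identifiers were handled and whether counting used strand are not given in the sources used here, so values of overlapping and antisense genes are uncertain. The 4 summary lines of the table were kept out of library sizes and tests. The comparison used the 4 WT-S and 4 WT-D mice by their labels. Of 55335 genes, 33942 had a count and 16475 passed filterByExpr over the 16 mice (minimum count 10, minimum total 15). CPM used TMM library sizes.

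Tests were two-sided and used the quasi-likelihood test of edgeR 4.0.16 in R 4.3.3, with Benjamini-Hochberg adjustment over all genes tested. Intervals were the coefficient plus or minus the t quantile times its standard error with the moderated quasi-dispersion, and 5 genes had none. DESeq2 1.42.0 and limma 3.58.1 (voom) were alternatives. Scripts were tested on simulated data. The p-values judge a difference between groups against the spread between these mice, moderated over genes. They say nothing on variation between cohorts or batches.

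Mice carry numbers 1 to 4 in each group. The number was used as a block in a second fit. Deviations of same-numbered mice from their group means correlated at 0.114, 0.205, 0.208 and 0.339, and 7 of 8 mice correlated best with their own number. The mean for different numbers was -0.0727. Deviations sum to 0 within a group, so a positive mean for same numbers forces a negative one for different numbers. The labels do not say what it marks.

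Members, gene lists and tests were chosen with earlier results of these data known, and the MHC class II list, the fits without both WT-D1 and WT-S4 and the blocked fits without the mice of 1 number were added after seeing the data. Genes were named by rule: all DEGs, with values per mouse for the 8 smallest p in each direction, the 8 next in each direction with the block, Scd1 to Scd4, up to 4 genes of each list by p and level, and the 5 smallest interaction p in each direction. Immune genes that stood out in WT-D1 were named after their values were seen. Depth was 18445533 to 23309273 reads on genes, and replicate counts differed by more than counting noise in every pair.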

Additional observations from a re-analysis of the deposited data

Results flagged for a closer look

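Within each group of 4 mice, 176 sets of values (summed lists and named genes) were searched for a mouse set apart from the other 3 by Dixon's test, and 17 were found. Chance alone flags about 1 in 20 groups of independent values. These sets overlap, and some were chosen with the same values known, so that rate cannot be set against the 17.

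WT-D1 stood apart in 11 of them. Its summed CPM was 828.9 for MHC class I against 174.5 to 191.8 in the other WT-D mice, 401.9 for interferon response against 114.9 to 139.9, 338 for inflammatory cytokines and chemokines against 122.2 to 136.2, and 261.9 for MHC class II against 13.59 to 17.37. For reactive astrocytes it was 1384 against 795.3 to 820, and for lysosome 3964 against 3622 to 3646. Single genes of the same mouse were H2-Ab1 (39.24 CPM against 0.7149 to 1.051), H2-Aa (54.49 against 1.153 to 2.252), H2-Eb1 (39.79 against 1.072 to 1.451), Lyz2 (39.16 against 8.732 to 10.31) and Gm42418 (2356 against 1679 to 1765). Ccl5, a T cell chemokine that was too low to be tested, had 62 reads in WT-D1 and 0 to 4 in each other WT mouse.

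Choroid plexus genes summed to 776.9 CPM in WT-D4 against 38.57 to 73 in the other WT-D mice, and to 315.7 CPM in WT-S1 against 36.17 to 43.84 in the other WT-S mice. D430019H16Rik was at 161 CPM in WT-D4 against 179.1 to 182.5. In WT-S4, Nr2e1 was at 15.41 CPM against 16.57 to 16.74, 1110015O18Rik at 0.2713 against 0.7255 to 0.7793, and Trim12a at 1.628 CPM against 0 in the other 3.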

How the results depend on the processing

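The 31 genes at an unadjusted p of 0.01 became 48 with all 16 mice in one fit, 77 with library weights in limma-voom, 180 with no filter on low counts, 115 with the replicate block, 49 with the share of reads outside genes as covariate and 124 with both. With mice chosen after seeing the data, they became 480 without WT-D1 and WT-S4, and with the block 107 without both mice numbered 1 and 385 without both numbered 4. Leaving out 1 mouse gave 22 to 516, the highest without WT-S4. The other alternatives gave 21 to 44. No DEG changed direction under any of these, and 9 to 30 of the 31 kept an unadjusted p of 0.01 or less. The block ended 7 of the 31 calls and changed no other call of a DEG.

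The count of 0 at the adjusted threshold became 2 with DESeq2, 2 with DESeq2 and DEGES size factors and 2 with no filter on low counts, Cfap54 and Gm15920 each time. It was 0 to 1 with 1 mouse left out (Gm15920 without WT-D3). The share of genes that exclude a 1.5-fold change, 73.4%, was 38.4% with no filter, 69.4 to 72.5% with 1 mouse left out and at most 82.4% elsewhere. The 98 interaction genes became 208 with no filter, 624 with the replicate block and 56 to 487 with 1 mouse left out, with 380 without WT-S4, 487 without 3xTg-S2, 220 without 3xTg-D4, 58 without 3xTg-D2 and 56 without 3xTg-S4. The cause was not tested, except that no filter adds genes of low count. Depth limits genes under 1 CPM, where few intervals exclude a 1.5-fold change.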

Other observations

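Without WT-S4 a further group of genes differed between the 3 remaining WT-S mice and the 4 WT-D mice, and these genes were picked after their values were seen. Dync1h1, the heavy chain of cytoplasmic dynein, was at 459.7, 419.9 and 410.0 CPM in WT-S1 to WT-S3, at 544.9 to 689.9 CPM in WT-D and at 709.3 CPM in WT-S4. Lrp1, an apolipoprotein E receptor, was at 233.4 to 251.8 CPM in WT-S1 to WT-S3, 297.9 to 365.5 CPM in WT-D and 413.3 CPM in WT-S4. Map1b, which binds microtubules, was at 1412 to 1479 CPM, 1706 to 1821 CPM and 2050 CPM in the same order. Ryr2, a calcium release channel, was at 202.7 to 239.4 CPM, 278.0 to 327.7 CPM and 399.7 CPM. In each of these 4 genes WT-S4 was the highest of the 8 mice and the other WT-S mice were the lowest.

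Among the 128 higher genes, Rnd2, a small GTPase of neuronal migration, was at 53.3 to 55.7 CPM in WT-S1 to WT-S3, 35.5 to 40.1 CPM in WT-D and 33.9 CPM in WT-S4 (log2 fold change without WT-S4 0.53, adjusted p = 0.0907 by edgeR). Kif5a, a kinesin motor, was at 3015 to 3201 CPM, 2373 to 2746 CPM and 2153 CPM. For both, WT-S4 was the lowest of the 8 mice. With all 8 mice the log2 fold changes were 0.39 for Rnd2, 0.16 for Kif5a and -0.27 for Dync1h1.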
